A study of Mus musculus with 4 samples.

Results

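Inherited primary microcephaly is most often caused by mutations in genes whose products act at the centrosome, the mitotic spindle or the midbody. The expression of 10 of them, Stil, Cenpj, Cep152, Cep135, Cep63, Cdk5rap2, Wdr62, Aspm, Mcph1 and Cit, was examined in embryonic mouse cortex with and without human SERPINA3. They were taken by gene symbol from the 26433 genes of the count table, and all 10 were found there and had enough reads to be tested. The rule used symbols and not values, although the 10 genes were chosen with earlier results of these data known.

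The cKI f/+ embryos carried human SERPINA3 on 1 Rosa26 allele, behind the CAG promoter and a loxP-flanked STOP sequence. Nestin-Cre cuts out the STOP, which turns the transgene on where Nestin is active and in the later cells of that lineage. The controls were wild-type littermates, and whether these also carried Nestin-Cre is not given in the sources used here. Both groups were C57BL/6 by their labels, although the founders had been bred with B6D2F2 mice, and both were sampled on embryonic day 15 (E15). Total RNA of the telencephalon, labelled cerebral cortex, was sequenced on an Illumina HiSeq, and 2 cKI f/+ libraries (KI2 and KI3) were compared here with 2 WT libraries (WT1 and WT3), although the labels speak of triplicates. The deposited reads assigned to genes came to 17736663 for KI2, 18119444 for KI3, 17615212 for WT1 and 17423512 for WT3, and 3 reads, used as the floor of detection, equal 0.166 to 0.172 CPM (counts scaled to library size), with regard to counting error alone. The human transgene was not analysed here, so the genotype of a library rests on its name in the table.

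In the developing cortex, radial glia line the ventricle and divide there, and each division needs a pair of centrosomes that organize a bipolar spindle. Centrioles are copied once per cell cycle, the pericentriolar material around them nucleates microtubules, and the position of the spindle and the last cut between the daughter cells bear on whether a progenitor is kept or lost. Loss of genes of this set can delay mitosis, deplete progenitors and leave a small brain.

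The libraries of the 2 genotypes also differed in the sex-linked transcripts. Xist, which is transcribed from the inactive X chromosome, had 13223 reads in KI2 and 11882 in KI3 but 5 in WT1 and 5 in WT3. The Y-linked genes Kdm5d, Uty and Ddx3y had 0 reads in both cKI f/+ libraries and between 214 and 951 in the WT libraries, and Eif2s3y had 1 read in KI2 and 0 in KI3, and 1149 in WT1 against 1147 in WT3. Each cKI f/+ library thus had the sex-linked transcripts of females and each WT library those of males, so sex and genotype cannot be told apart for any gene described here.

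To find out whether SERPINA3 expression goes along with altered levels of these genes, all 15786 genes with enough reads were tested by edgeR's quasi-likelihood test, and a gene was called at a Benjamini-Hochberg adjusted p under 0.05. Of the 10 genes, 0 were called, against 19 of all tested genes (0.120%), and 0 were called by edgeR's likelihood ratio test or by DESeq2 either. At an unadjusted p under 0.05 the count was also 0 of 10, against 726 of all tested genes. Their log2 fold changes, cKI f/+ over WT, ran from -0.28 for Cep135 to 0.17 for Wdr62, with 5 above 0 and 5 below 0. The median was 1.70e-05, beside 0.0043 for all tested genes, and the median size without regard to sign was 0.046, beside 0.099. All tested genes also include genes with few reads, so these sizes are not matched for level. The median log2 fold change moved with the WT libraries, to 0.13 without WT1 and to -0.11 without WT3. The 95% intervals of all 10 genes included 0, and their outermost bounds were folds of 0.665 and 1.37. The libraries of the groups did not overlap for 3 of the 10 genes (Wdr62, Mcph1 and Cep135), a share close to the 34.1% of all tested genes that do the same. P-values measure only the spread between these 4 libraries, since how many embryos went into each is not given in the sources used here. For a single gene with 2 libraries against 2, the smallest p a two-sided exact permutation test can give is 0.333. In this bulk RNA, fewer cells of a type and less RNA per cell cannot be told apart.

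**Figure D1:**
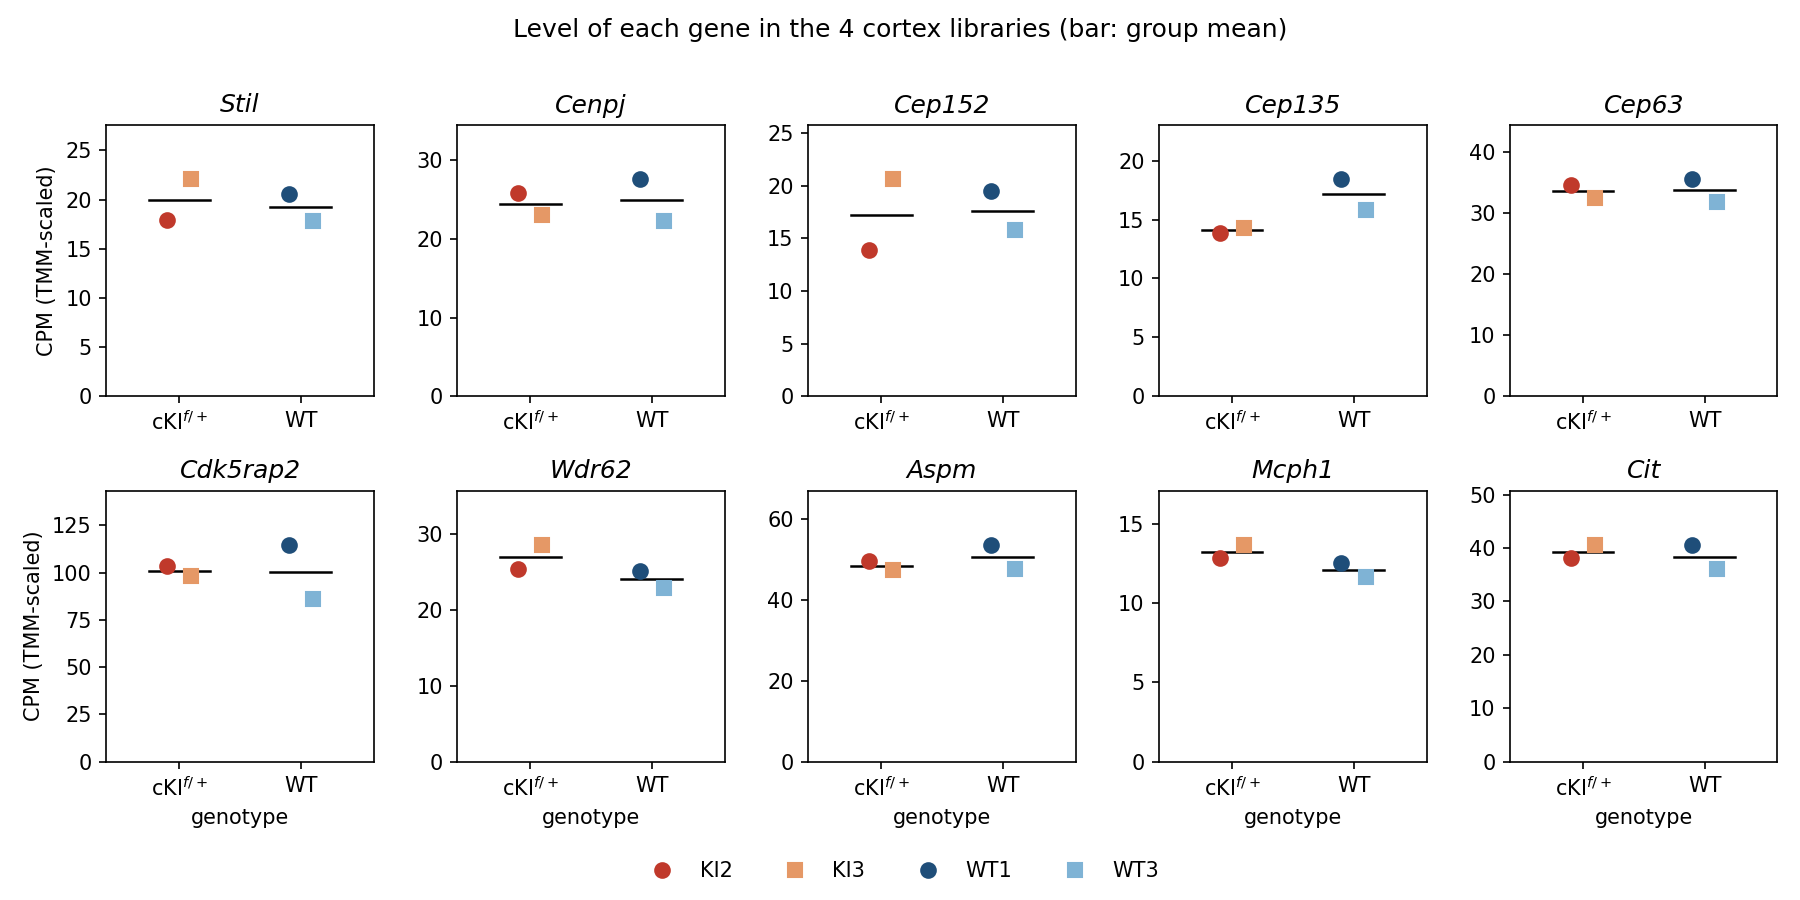
Level of each of the 10 genes in CPM, scaled by TMM, in the cKI f/+ libraries KI2 and KI3 and the WT libraries WT1 and WT3; each symbol is 1 library, each bar a group mean, and every axis starts at 0. Groups are apart for Cep135, Wdr62 and Mcph1, and WT1 lies above WT3 in all 10 panels.

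A new centriole is started beside each old one by a small set of proteins, 5 of which are encoded by genes of this set. Cep152 and Cep63 form a ring around the old centriole, and Cep152 brings the kinase PLK4 to it. Cep152 (ENSMUSG00000068394, chr2:125563088-125625113, minus strand) had 13.9 CPM in KI2 and 20.6 in KI3, and 19.5 in WT1 against 15.8 in WT3, from 245, 374, 344 and 275 reads. KI2 was the lowest and KI3 the highest of the 4 libraries, so the whole WT range lay inside the cKI f/+ range. KI3 had 1.48 times the level of KI2, the widest gap within a group among the 10 genes, and the standard error of the log2 fold change was the largest as well (-0.030 ± 0.19, 95% interval -0.46 to 0.40). The sign depended on single libraries, since the value was 0.22 without KI2 and 0.13 without WT1.

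Cep63 (ENSMUSG00000032534, chr9:102584588-102626534, minus strand), the partner of Cep152, gave 34.6 CPM in KI2 and 32.5 in KI3, and 35.5 in WT1 against 31.8 in WT3. The libraries of the genotypes interleaved, with WT1 highest and WT3 lowest. The log2 fold change of -0.0062 (standard error 0.10, 95% interval -0.24 to 0.23) turned to 0.0016 with upper quartile normalization, to 0.034 without KI3 and to 0.076 without WT1. Its exons share 239 bases with Anapc13 on the opposite strand, which had 236 to 284 reads per library, and since the strand setting of the counting is not given in the sources used here, reads from the shared stretch could belong to either gene.

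Stil (ENSMUSG00000028718, chr4:115000159-115043196, plus strand) binds PLK4 and recruits the cartwheel protein SASS6, which starts the new centriole. Its level was 17.9 CPM in KI2 and 22.1 in KI3, and 20.6 in WT1 against 17.8 in WT3. KI3 and WT1 were high and KI2 and WT3 were low, whatever the genotype. The log2 fold change was 0.056 ± 0.14 (standard error; 95% interval -0.26 to 0.38), but -0.11 without KI3 and -0.042 without WT3.

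Cep135 encodes a structural protein of the cartwheel that links it to the centriole wall, and it had the lowest log2 fold change of the 10 genes. Cep135 (ENSMUSG00000036403, chr5:76588698-76646466, plus strand) had 244 reads in KI2 and 259 in KI3, against 325 in WT1 and 276 in WT3. Scaled to library size, these were 13.9 and 14.3 CPM in the cKI f/+ libraries and 18.4 and 15.8 CPM in the WT libraries (14.1 ± 0.313 against 17.1 ± 1.83, mean ± SD, n = 2 each). Both cKI f/+ libraries lay below both WT libraries, and the cKI f/+ libraries were close to each other while WT1 stood above WT3. The log2 fold change was -0.28 (standard error 0.14, 95% interval -0.59 to 0.02), a fold of 0.821, with an unadjusted p of 0.0642 and an adjusted p of 0.969 by edgeR's quasi-likelihood test. It stayed below 0 in every alternative tried, between -0.17 without WT1 and -0.39 without WT3, with adjusted p-values of 0.549 or more.

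Cenpj (ENSMUSG00000064128, chr14:56526761-56575425, minus strand), which binds tubulin and sets the length of the new centriole, had 25.8 CPM in KI2 and 23.0 in KI3, and 27.6 in WT1 against 22.3 in WT3. The cKI f/+ libraries lay between the WT libraries. Its log2 fold change of -0.031 (standard error 0.13, 95% interval -0.33 to 0.26) became 0.045 without KI3 and 0.13 without WT1.

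In the pericentriolar material, Cdk5rap2 anchors and activates the gamma-tubulin ring complexes from which microtubules grow. Cdk5rap2 (ENSMUSG00000039298, chr4:70216856-70410443, minus strand) had the most reads of the 10 genes, with 1821 in KI2 and 1784 in KI3, and 2023 in WT1 against 1502 in WT3. These corresponded to 103, 98.4, 115 and 86.2 CPM, in the same order. The cKI f/+ libraries were nearly alike and lay inside the WT range, which was the widest of the 10 genes, WT1 having 1.33 times the level of WT3. The group means were 101 ± 3.48 and 100.4 ± 20.1 CPM (SD, n = 2 each), and the log2 fold change was 0.0062 ± 0.12 (standard error; 95% interval -0.27 to 0.28). Its sign changed without KI2 (-0.040) and without WT3 (-0.18). A processed pseudogene, Ywhaq-ps3, lies in its exons over 365 bases on the same strand and had 50 to 90 reads per library.

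Wdr62 and Aspm are the most frequently mutated genes in families with the disease, and both proteins gather at the spindle poles in mitosis. Wdr62, a scaffold that stabilizes the poles, had the highest log2 fold change of the 10 genes. Wdr62 (ENSMUSG00000037020, chr7:30240138-30280419, minus strand) had 447 reads in KI2 and 518 in KI3, against 443 in WT1 and 399 in WT3. Scaled, KI2 had 25.4 CPM, KI3 28.6 CPM, WT1 25.1 CPM and WT3 22.9 CPM. Both cKI f/+ libraries lay above both WT libraries, but KI2 exceeded WT1 only barely. The group means were 27.0 ± 2.27 and 24.0 ± 1.57 CPM (SD, n = 2 each), and the log2 fold change was 0.17 (standard error 0.11, 95% interval -0.09 to 0.42), a fold of 1.12, with an adjusted p of 0.969 by edgeR's quasi-likelihood test. In the alternatives the value ran from 0.075 without KI3 to 0.24 without KI2, and was 0.10 without WT3, with adjusted p-values of 0.877 or more. Thap8, which shares 264 exon bases with Wdr62 on the opposite strand, had between 0 and 4 reads per library.

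Aspm, which holds the minus ends of spindle microtubules and keeps the spindle of radial glia aligned with the ventricle surface, had the smallest standard error of the 10 genes. For Aspm (ENSMUSG00000033952, chr1:139454772-139494091, plus strand), 874 reads were counted in KI2 and 859 in KI3, and 947 in WT1 against 831 in WT3, or 49.6, 47.4, 53.7 and 47.7 CPM. WT1 was the highest library, and the other 3 were close together, so the groups overlapped. The log2 fold change was -0.064 ± 0.097 (standard error), and its 95% interval from -0.28 to 0.15 is a fold between 0.823 and 1.11. Without WT1 it was 0.025.

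Mcph1 (ENSMUSG00000039842, chr8:18595131-18803189, plus strand) encodes microcephalin, which restrains condensin II so that chromosomes do not condense before mitosis. It had 226 reads in KI2 and 248 in KI3, and 221 in WT1 against 203 in WT3, or 12.8, 13.7, 12.5 and 11.7 CPM. As for Wdr62, both cKI f/+ libraries lay above both WT libraries with little room between KI2 and WT1. The means of 13.3 ± 0.606 and 12.1 ± 0.621 CPM (SD, n = 2 each) gave a log2 fold change of 0.13 (standard error 0.14, 95% interval -0.18 to 0.45), and its adjusted p by edgeR's quasi-likelihood test was 0.987. The alternatives gave 0.081 without KI3 to 0.19 without WT1, and 0.082 without WT3. An antisense gene, Gm16725, overlaps 190 of its exon bases and was not analysed here, and without strand its reads could not be told apart from those of Mcph1.

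Cit (ENSMUSG00000029516, chr5:115845278-116008947, plus strand) encodes citron kinase, which works at the midbody, the bridge between daughter cells at the end of division. Its libraries had 38.0 CPM in KI2 and 40.5 in KI3, and 40.6 in WT1 against 36.1 in WT3, from 670, 735, 716 and 629 reads. WT1 and KI3 were almost equal at the top and WT3 was lowest. The log2 fold change was 0.035 ± 0.10 (standard error; 95% interval -0.19 to 0.26), and it was -0.017 without KI3 and -0.046 without WT3.

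**Figure D2:**
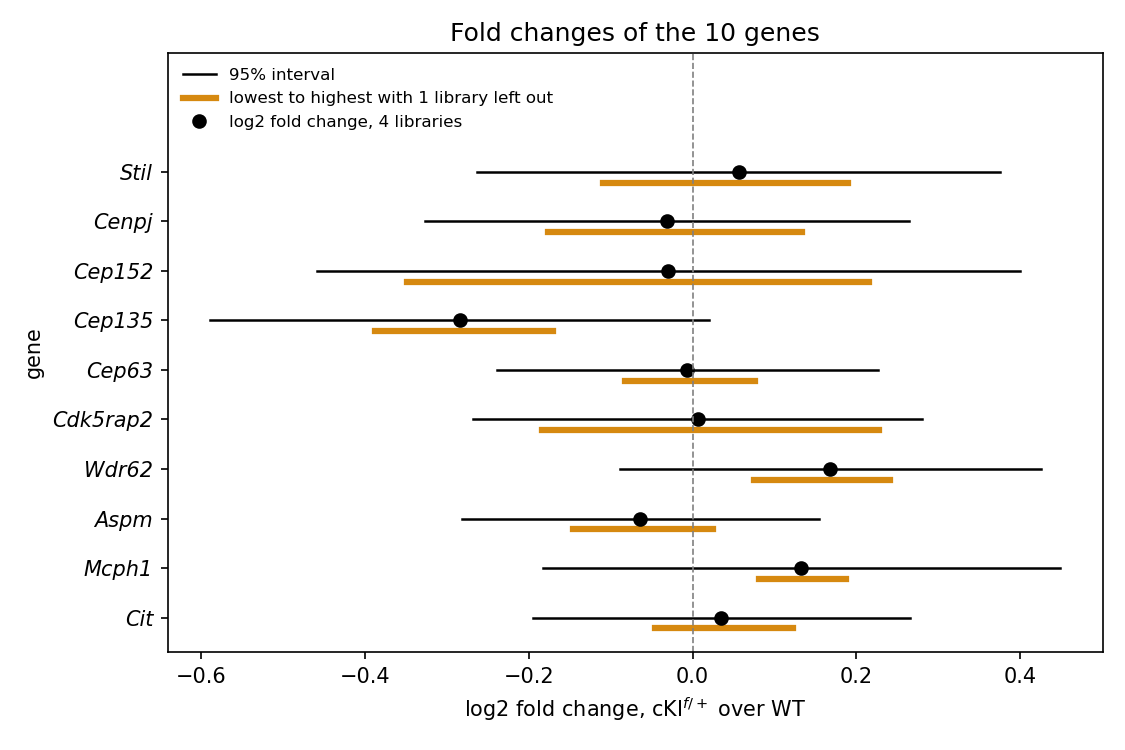
Log2 fold change of each of the 10 genes, cKI f/+ over WT (point), with its 95% interval (thin line) and the lowest and highest values with 1 library left out (thick line). All 10 intervals include 0; with 1 library left out, the sign held for Cep135, Wdr62 and Mcph1 and changed for the other 7, and Cep63 also changed sign with upper quartile normalization.

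All 10 genes differed in the same direction between the WT libraries. Summed over the 10 genes, the level was 335 CPM in KI2 and 341 CPM in KI3, but 368 CPM in WT1 and 308 CPM in WT3. WT1 lay above WT3 for all 10 genes, and it did so for 47.7% of all tested genes but for 21 of 23 other primary microcephaly genes, so the gap was not particular to the set. In further lists, described below, the counts were 13 of 19 for centriole duplication, 14 of 21 for pericentriolar material and 13 of 21 for the spindle. They were 11 of 16 for the midbody, 7 of 10 for condensin and 4 of 9 for the surveillance of centrosome loss. WT1 was the highest library for 6 of the 10 genes and KI3 for 4, while WT3 was the lowest for 7, KI2 for 2 and KI3 for 1. The median gap between WT1 and WT3 was 0.18 on the log2 scale, with a range of 0.10 to 0.41, whereas KI2 lay above KI3 for 4 genes, with a median gap of -0.067.

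The merged exons of the 10 genes in GENCODE M21 cover 4874 to 16417 bases, beside a median of 4157 bases for tested genes, although single transcripts can be shorter, such as the 2696 bases of the Cep63 transcript with the longest coding sequence. After the gap between WT1 and WT3 had been seen, it was therefore also counted by length. Among the 6440 tested genes at least as long as the shortest of the 10, WT1 lay above WT3 for 60.2% and the median gap was 0.048, while among the 9325 shorter genes it did so for 39.1%, with a median gap of -0.054. Among the 3485 long genes whose mean CPM was within the range of the 10 genes, the share was 61.5%. In the cKI f/+ group KI2 likewise lay above KI3 for 59.6% of the 6440 genes and 60.8% of the 3485, but for 4 of the 10. The median gap of the 10 genes was larger than these, and the part of exon length in it was not tested. The median log2 fold change, cKI f/+ over WT, also differed by length, at -0.023 for the 6440 long genes and 0.025 for the shorter ones. It was -0.034 for the 3485, beside 1.70e-05 for the 10 genes.

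Per kilobase of merged exons, Cdk5rap2 had the highest level of the set and Mcph1 the lowest, 4.77 times apart. Cdk5rap2 reached 7.74 CPM per kilobase (range over the 4 libraries 6.62 to 8.81), and no library of the next gene overlapped it. Cenpj (5.06), Wdr62 (4.44) and Aspm (4.28 CPM per kilobase) followed, each overlapping the next over the libraries, and all libraries of Aspm lay above those of Cep63. Cep63 (3.50), Stil (3.38), Cep152 (3.03), Cit (2.36) and Cep135 (2.17 CPM per kilobase) again formed a chain in which each gene overlapped the next, and Mcph1 was clear of them at 1.62 CPM per kilobase. The order depends on which exons are counted. With the transcript that has the longest coding sequence, a choice made after the data were seen, Cep63 moved from place 5 to place 1 (12.5 CPM per kilobase) and Cit from place 8 to place 3 (6.25 CPM per kilobase), while Mcph1 remained last (2.72 CPM per kilobase) but was no longer clear of Cep135, whose libraries overlapped it.

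Some of the roles also appear in the annotation of the count table. Stil, Cenpj, Cep152, Cep135, Cep63 and Wdr62 carry the GO term centriole, which 104 tested genes have, and their median log2 fold change was -0.019. Cenpj, Cep152, Cep135, Cep63 and Wdr62 are 5 of the 17 tested genes under centriole replication, whose median was -0.030. Wdr62, Aspm and Mcph1 are annotated to both neuronal stem cell population maintenance (23 tested genes, median 0.041) and cerebral cortex development (56 tested genes, median 0.015). The genes are not clustered in the genome: Stil and Cdk5rap2 both lie on chromosome 4 and Cep135 and Cit both on chromosome 5, at a distance in each case, and the other 6 lie on 6 further chromosomes.

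Promoters of genes that peak in late cell cycle often hold CHR elements and CCAAT boxes, and E2F sites are common in genes of early S phase, so these motifs were looked for on both strands in 300 bases around a start of each gene (250 before and 50 after) as given by RefSeq on GRCm38.p6. Promoters were found for 9 of the 10 genes, and Mcph1 had no entry. For Cenpj, Cep63 and Cit the RefSeq start lies inside the gene as positioned above, so their windows do not reach its outer end. TTTGAA (CHR) was present in Cdk5rap2 and Aspm, beside 17.9% of 32851 mouse promoters. CCAAT was present in Stil, Cep152, Cep135, Wdr62 and Aspm, with 3 copies in each of them but Cep135, which had 1, and 37.4% of all promoters hold it. TTTCGCGC or TTTGGCGC (E2F) was found in Cep63, and in 0.813% of all promoters. The 5 genes with CCAAT included both ends of the fold changes, from -0.28 for Cep135 to 0.17 for Wdr62. The 4 without it in these windows ran from -0.031 to 0.035. Mcph1, at 0.13, had no promoter to search, and a link between CCAAT and fold change was not tested. A match describes the letters and says nothing about whether a factor binds. The promoters of Aspm, which holds CHR and CCAAT, and of Wdr62 and Cep135, with the highest and the lowest log2 fold change, are printed 5′ to 3′ on the strand of the gene, with CHR and CCAAT matches on either strand in capitals.
Aspm promoter (chr1:139454523-139454822, plus strand): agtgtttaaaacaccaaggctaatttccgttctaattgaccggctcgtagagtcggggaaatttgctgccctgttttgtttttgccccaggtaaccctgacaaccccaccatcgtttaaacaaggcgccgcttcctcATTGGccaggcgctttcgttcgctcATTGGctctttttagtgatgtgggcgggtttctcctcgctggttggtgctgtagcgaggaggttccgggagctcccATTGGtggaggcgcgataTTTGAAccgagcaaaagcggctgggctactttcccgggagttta
Wdr62 promoter (chr7:30280372-30280671, minus strand, the first of the entries for this gene): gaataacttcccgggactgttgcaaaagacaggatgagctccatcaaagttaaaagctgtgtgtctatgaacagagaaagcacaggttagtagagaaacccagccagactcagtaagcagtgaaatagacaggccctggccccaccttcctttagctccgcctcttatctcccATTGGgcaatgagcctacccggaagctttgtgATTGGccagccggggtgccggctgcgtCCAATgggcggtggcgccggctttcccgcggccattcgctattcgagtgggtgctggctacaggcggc
Cep135 promoter (chr5:76588449-76588748, plus strand): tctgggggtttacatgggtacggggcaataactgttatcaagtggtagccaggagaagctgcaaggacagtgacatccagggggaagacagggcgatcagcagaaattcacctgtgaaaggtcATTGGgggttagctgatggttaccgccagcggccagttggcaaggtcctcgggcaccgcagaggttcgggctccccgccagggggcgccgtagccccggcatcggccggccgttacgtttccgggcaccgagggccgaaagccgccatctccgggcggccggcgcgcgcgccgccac
In Aspm all 3 CCAAT boxes are on the opposite strand, read as ATTGG, and lie before the CHR element, while in Wdr62 the boxes fall on both strands and in Cep135 the single box is on the opposite strand.

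The partners of the 10 genes were examined in 8 lists of related genes, which overlap. They held 128 genes of the table, of which 126 were tested and 0 were called by edgeR's quasi-likelihood test, its likelihood ratio test or DESeq2. At an unadjusted p under 0.05 there were 5 of 126, no larger a share than the 726 of 15786 among all tested genes, namely Nup37, Cep131 and Cdkn1a with a positive and Cep57l1 and Cep295 with a negative log2 fold change. Of the 126 genes, 56 had a log2 fold change above 0 and 70 below 0, with a median of -0.012.

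In the centriole duplication list, to which the PLK4 and SASS6 partners of Stil and Cep152 belong, 16 of 19 log2 fold changes were below 0 (median -0.064). Of the 5 genes of the set with this role, Cep135 was below 0 in every alternative, Stil was above 0 with all libraries but not without KI3 or WT3, and Cep152, Cep63 and Cenpj were close to 0 and turned positive without WT1. Cep57l1, a relative of CEP57, which joins CEP63 and CEP152 in the ring, had 7.89 CPM in KI2 and 8.44 in KI3, and 11.6 in WT1 against 11.3 in WT3. Its log2 fold change was the lowest of all related genes (-0.48, 95% interval -0.83 to -0.13, adjusted p = 0.969 by edgeR's quasi-likelihood test), and both cKI f/+ libraries lay below both WT libraries. Cep295, which turns new centrioles into centrosomes and was chosen after its values were seen, had 30.0 and 32.5 CPM in the cKI f/+ libraries and 39.4 and 35.2 CPM in the WT libraries (log2 fold change -0.26, 95% interval -0.49 to -0.02). The highest value of that list was 0.23, for Poc1a, a protein of the centriole wall (95% interval -0.11 to 0.57; 0.14 without WT1).

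Among other genes mutated in primary microcephaly, 10 of 23 were above 0 and 13 below 0 (median -0.0058). Nup37, of the nuclear pore, was highest with 22.9 and 22.5 CPM in the cKI f/+ libraries and 17.4 and 19.7 CPM in the WT libraries (log2 fold change 0.29, 95% interval 0.03 to 0.56, adjusted p = 0.969 by edgeR's quasi-likelihood test). Sass6, which builds the cartwheel, was lowest at -0.34 (95% interval -0.77 to 0.09), with -0.14 without WT1 and -0.51 without WT3. In the list of pericentriolar material and microtubule nucleation, where Cdk5rap2 acts, 9 of 21 were above 0 (median -0.028), between 0.19 for Cep131 and -0.22 for Pcm1, both proteins of centriolar satellites, and Pcm1 was -0.071 without WT1 and -0.35 without WT3. For spindle assembly and orientation, beside Wdr62 and Aspm, 11 of 21 were above 0 (median 0.0037), between 0.11 for the spindle checkpoint gene Bub1b (-0.012 without KI3) and -0.25 for the spindle motor gene Kif11 (-0.070 without WT1 and -0.40 without WT3).

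Around Mcph1, 9 of 10 genes of condensin and chromosome condensation were below 0 (median -0.050). They ran from -0.20 for the condensin II subunit Ncapg2 to 0.066 for Set (-0.0049 without KI3). Of this list, 7 genes were at least as long as the shortest gene of the set. Around Cit, 9 of 16 midbody and cytokinesis genes were above 0 (median 0.0075), from -0.16 for Ect2, which starts the cleavage furrow, to 0.094 for Incenp, of the chromosomal passenger complex (-0.034 without KI3). Cells that lose centrioles or linger in mitosis are stopped through USP28, 53BP1 and p53. In that list 6 of 9 genes were above 0 (median 0.037), and its lowest value was -0.13, for Mdm2 (-0.070 without WT3). Cdkn1a, the p21 target of p53, had 11.4 CPM in KI2 and 18.2 in KI3, and 7.94 in WT1 against 11.1 in WT3. KI3 stood above the other libraries and KI2 was close to WT3, and the log2 fold change was 0.64 (95% interval 0.10 to 1.17, adjusted p = 0.969 by edgeR's quasi-likelihood test), or 0.26 without KI3.

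**Figure D3:**
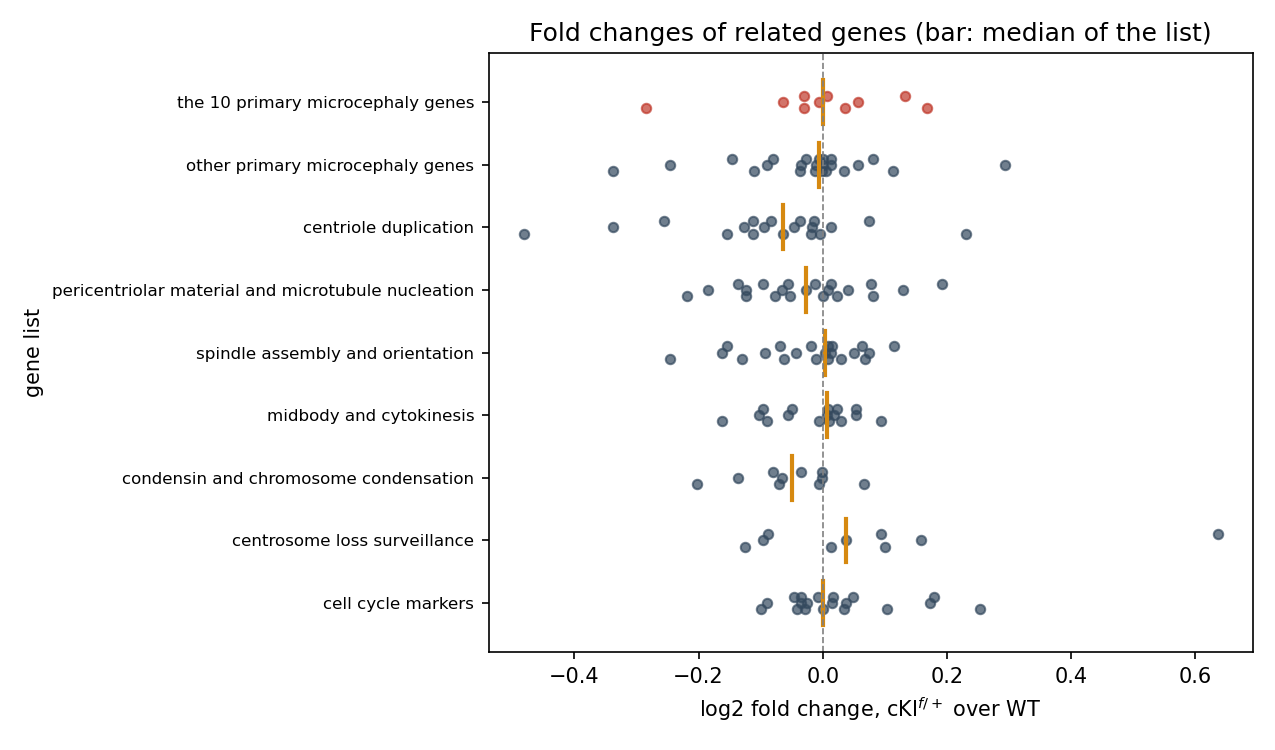
Log2 fold change, cKI f/+ over WT, of each tested gene (point) in the set of 10 and in 8 lists of related genes, with the median of each list (bar). The medians lie between -0.064 and 0.037; Cdkn1a is the point at 0.64 and Cep57l1 the point at -0.48.

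Since the 10 genes are used by dividing cells, markers of cycling cells and of the cell types of the tissue were set beside them. Of 19 cell cycle genes, 10 were above 0 and 9 below 0 (median 3.79e-04), and they summed to 2301 CPM in KI2 and 2430 in KI3, and 2462 in WT1 against 2236 in WT3. By gene, WT1 lay above WT3 for 12 of these 19, against all 10 of the set. The lists are not matched for length, since 6 of these 19 were at least as long as the shortest of the 10. The extremes were 0.25 for Ccne1 (95% interval -0.06 to 0.56; 0.13 without KI3) and -0.099 for Ccnd1, which was 0.019 without KI2 and 0.025 without WT1. Radial glia markers, led by Vim, summed to 2328, 2450, 2304 and 2461 CPM in KI2, KI3, WT1 and WT3, and intermediate progenitor markers, led by Neurog2, to 1220, 1211, 1199 and 1152 CPM. Of the radial glia markers 6 of 10 were above 0 (median 0.044), and of the intermediate progenitor markers 5 of 6 (median 0.073). Cortical neuron markers, led by Tubb3, came to 6941, 6411, 7000 and 7171 CPM, with 9 of 10 below 0 (median -0.13). Of these markers, 7 were at least as long as the shortest gene of the set. These lists of progenitors and neurons held 1 gene at an unadjusted p under 0.05 (Neurog1) and 0 genes called by edgeR's quasi-likelihood test, its likelihood ratio test or DESeq2. Markers of the labelled tissue were thus present in all 4 libraries.

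Some markers outside the progenitor and neuron lists differed between the libraries. The 5 tested choroid plexus markers were all above 0 and summed to 10.4 CPM in KI2 and 67.5 in KI3, and 2.38 in WT1 against 4.65 in WT3, and Kl had 2 reads or fewer per library. KI3 held most of this signal, and KI2 lay above both WT libraries for Ttr, Clic6 and Aqp1 but not for Folr1 and Otx2. Their most abundant gene, Ttr, the transthyretin of choroid plexus epithelium, had 116 reads in KI2 and 956 in KI3, and 0 in WT1 against 4 in WT3, with an adjusted p of 0.116 by edgeR's quasi-likelihood test and 1.89e-11 by its likelihood ratio test. With 1 library left out the quasi-likelihood test called Ttr each time, at an adjusted p of 2.53e-11 without KI2, 3.95e-06 without KI3, 0.00888 without WT1 and 0.00980 without WT3. Of 5 tested meninges markers, 4 were above 0, and they summed to 21.2, 19.3, 9.98 and 11.0 CPM in KI2, KI3, WT1 and WT3, led by Col3a1, while Lum had 0 to 6 reads per library. The quasi-likelihood test called 0 of the choroid plexus and meninges markers with all libraries, although 3 (Ttr, Clic6 and Aqp1) and 4 (Col1a1, Col1a2, Dcn and Col3a1) of them had an unadjusted p under 0.05, and DESeq2 called 0, but the likelihood ratio test called 1 and 2. Why these markers differed between the libraries was not tested. Ventral telencephalon markers, led by Dlx1, summed to 240.1, 250.4, 245 and 308 CPM, and 6 of 8 were below 0. Of these 8, Dlx2 (-0.59) and Nkx2-1 (1.94, at 1.08 CPM or less in each library) had an unadjusted p under 0.05, and 0 were called by any of the 3 tests with all libraries. Blood markers, led by Hbb-bs, summed to 509, 384, 508 and 538 CPM, with KI3 lowest and 7 of 8 below 0. Hbb-bt, Alas2 and Hba-a2 had an unadjusted p under 0.05, and 0 of the 8 were called by any of the 3 tests with all libraries. Hbb-bs was called without KI2 (log2 fold change -0.74, adjusted p = 0.0125 by edgeR's quasi-likelihood test) but not with all libraries (-0.37, adjusted p = 0.969). With 1 library left out, calls by edgeR's quasi-likelihood test were also made for Clic6 (adjusted p = 3.83e-05) and Aqp1 (0.0268) without KI2, for Col1a1 (0.0377), Col1a2 (0.0116), Dlx2 (0.0332) and Hba-a2 (0.0304) without KI3, for Dlx2 (0.0244) and Hbb-bt (0.0368) without WT1, and for Col1a1 (0.00823) and Dcn (0.0369) without WT3. Calls among the choroid plexus, meninges, ventral telencephalon and blood markers thus changed with single libraries. Endothelium markers, led by Cldn5, summed to 78.1, 88.4, 89.5 and 84.9 CPM, and microglia markers, led by Csf1r, to 29.0, 31.0, 32.0 and 34.5 CPM, with Cx3cr1 alone among both lists at an unadjusted p under 0.05. Between the WT libraries, in which the 10 genes were all higher in WT1, WT1 lay above WT3 for 5 of 6 intermediate progenitor, 4 of 6 microglia, 6 of 10 cortical neuron, 3 of 5 meninges, 3 of 5 endothelium, 4 of 8 blood, 3 of 10 radial glia, 1 of 5 choroid plexus and 1 of 8 ventral telencephalon markers. These lists also differed in gene length, and the part of tissue makeup in the levels of the 10 genes was not tested.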

How the data were processed

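Counts of reads per gene were used as the authors deposited them, without normalization; the submitters' processing notes name Bowtie2 2.2.3, TopHat2 2.0.12, HTSeq 0.6.0 and build mm9, whereas the table places genes on GRCm38 (24485 of 26433 genes match GENCODE M21 exactly, the 10 genes included). The authors' own columns of mean normalized counts, fold changes, p-values and significance were not used. In R 4.3.3, edgeR 4.0.16 filtered the genes by its default, scaled them by TMM and tested them by quasi-likelihood with genotype as the only term (biological coefficient of variation 8.72%); a standard error is the log2 fold change divided by the root of F. The procedure was tested on simulated data, the outcome of which is not given here. Libraries of a group were not copies (chi-square of counts per degree of freedom 4.36 for cKI f/+ and 5.67 for WT). Alternatives were DESeq2 1.42.0, the likelihood ratio test, DESeq2 size factors, upper quartile or library size scaling, at least 1 count in all or 10 counts in every library, no X and Y genes, and each library left out; those for genes outside the set were added after seeing the data.

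The 10 genes and the lists were chosen with earlier results of these data known. Named genes were the 10; from each related list the called genes, otherwise the genes with the largest increase and the largest decrease at a mean of 5 CPM or more; the most abundant gene of each marker list; and the 5 sex-linked genes. Genes that share exon bases with the 10 are named as well, and all further genes (Cep295 and single markers other than the most abundant) were chosen after their values were seen. No likeness between expression patterns was computed, since 4 libraries are too few. GO terms were used as the table lists them per gene.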

Additional observations from a re-analysis of the deposited data

How the results depend on the processing

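For the 10 genes and for the related lists the number called was 0 under every alternative. Across the whole table, 19 genes were called, but 11 without the X and Y genes, 6 when 10 counts were required in each library, 54 by the likelihood ratio test, and 46 to 71 with 1 library left out, where the single library left in a group is assumed to vary like the other group. The cause was not tested. The median log2 fold change of the 10 genes ranged from -0.11 to 0.13 with 1 library left out. With upper quartile normalization Cep63 changed sign (0.0016). With 1 library left out, signs changed within the ranges -0.11 to 0.19 for Stil, -0.18 to 0.13 for Cenpj, -0.35 to 0.22 for Cep152, -0.082 to 0.076 for Cep63, -0.18 to 0.23 for Cdk5rap2, -0.15 to 0.025 for Aspm and -0.046 to 0.12 for Cit. Among the other named genes for which this was computed, signs changed within -0.012 to 0.23 for Bub1b, -0.034 to 0.20 for Incenp, -0.0049 to 0.12 for Set, -0.25 to 0.025 for Ccnd1, -0.049 to 0.12 for Vim, -0.11 to 0.089 for Tubb3 and -0.32 to 0.035 for Dlx1. Folr1 and Otx2 were not among the genes for which it was computed. Cep135, Wdr62 and Mcph1 kept their sign in every alternative. No paired analysis was possible because KI3 and WT1 carry numbers that no label of their own group has. Also, KI3 and WT3 alone share a number. With 203 to 2023 counts per gene and library the 10 genes were far above the floor of 3 counts, and their standard errors ran from 0.097 for Aspm to 0.19 for Cep152.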
